A study of Homo sapiens with 12 samples.

Results

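The 10 genes described here encode transcription factors of the DLX, TFAP2, GATA and MSX families, namely DLX3, DLX5, DLX6, TFAP2A, TFAP2B, TFAP2C, GATA2, GATA3, MSX1 and MSX2. They were picked by gene name out of 58575 rows of a count table and 60617 rows of a table of TPM (read counts scaled to gene length and library size), and each had 1 row in both tables. The names were chosen with earlier results of the same libraries known, among them the level of DLX5 in Cond 2. The differences between conditions given below are therefore selected on the measured values, and are a description without p-values for Cond 2 and Cond 3.

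All 12 RNA-Seq libraries came from 201B7, an established human iPSC line made from skin fibroblasts, harvested on Day 5 with 3 libraries per condition. The series' design text places them in separate wells on separate plates, whereas the study elsewhere describes the replicates as technical. Cond 1 (control) was the usual maintenance culture in StemFit medium on iMatrix511. Cond 2 (Low nutrient) received StemFit heated at 56 °C for 30 min. Cond 3 (Differentiation) received DMEM with 10% FBS, MEM NEAA and GlutaMax. Per the study, the heated medium of Cond 2 was given from an earlier day than the FBS medium of Cond 3. Cond 4 (Physical stimulas) was pipetted 20 times at passaging and then cultured like the control. All cells were of one line, so the values describe that line, and SDs and p-values measure the spread between these libraries, which may be technical only.

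In the embryo, surface (non-neural) ectoderm forms where BMP signalling is high, and neural ectoderm forms where BMP is blocked. BMP ligands bind receptors that activate SMAD1 and SMAD5, and TFAP2A, TFAP2C, GATA2, GATA3, DLX3, DLX5, MSX1 and MSX2 are known to be switched on early in the ectoderm that receives this signal and at the neural plate border. Several of them also act elsewhere. TFAP2C is expressed in naive pluripotent and germ cells, and GATA2, GATA3 and TFAP2C in trophoblast, so that no one of them marks a single cell type.

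The libraries held 16441148 to 21871503 counted reads each. All 14 pluripotent cell markers fixed for this check had a mean TPM of at least 1 in every condition, and their summed TPM was 7830 to 9030 in Cond 2 and 9120 to 9400 in Cond 1. Of the fibroblast markers, DCN, LUM and FAP had a mean TPM between 0 and 0.0529 in every condition, whereas COL1A1, COL1A2 and THY1 were expressed. Cond 2 replicate 1 differed most from its fellow replicates, with a chi-square per gene of 7.31 and 9.42 against replicates 2 and 3, where the other pairs of replicates gave 3.99 to 6.31. All libraries were kept.

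The surface ectoderm label was checked against epithelial markers. TP63, which drives epidermal fate, had 2 counts in 1 library of Cond 3 and 0 in the other 11 libraries. The basal keratins KRT5 and KRT14 each had 2 counts in Cond 2 replicate 2 and 0 elsewhere. Simple epithelial genes were at a high level in all conditions, and the summed TPM of the 18 epithelial genes was 1900 to 2080 in Cond 1, 1890 to 2060 in Cond 2 and 1840 to 1980 in Cond 4. In Cond 3 the sum was 1650 to 1680, below every library of the other conditions. Of the 14 epithelial genes tested, 1 was called in Cond 2 and 0 in Cond 3, with median log2 fold changes of 0.039 and 0.017. An adjusted p under 0.05 at any fold was found for 4 of the 14 in each of these media. The called gene was GRHL3, a transcription factor of the surface ectoderm (log2 fold change 1.02, SE 0.358, edgeR quasi-likelihood adjusted p = 0.0464). The gene lists used here and below were chosen with earlier results of these libraries known, so their counts and p-values are not independent evidence. The GRHL3 call was lost with the 6 libraries compared alone (log2 fold change 1.01) and with limma on log2(TPM + 1) (0.79) or log2(TPM + 0.1) (0.99). It was also lost without Cond 1 replicate 1, Cond 1 replicate 2, Cond 2 replicate 1 or Cond 2 replicate 2, and over the 6 fits that left out 1 library the log2 fold change ranged from 0.42 to 1.32. GRHL3 was at 8.84, 4.36 and 2.85 TPM in the 3 Cond 2 libraries. As the defining markers of a stratifying surface epithelium were at or near 0, the 10 genes are called here by their families.

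The sequence before the start site is shown for the genes that were called higher in Cond 2 and whose RefSeq promoter window is set on the start of the canonical GENCODE v44 transcript. The 250 bases before the start are given 5′ to 3′ on the strand of the gene (RefSeq, GRCh38.p14), with motif matches in capitals. DLX3, DLX5 and TFAP2C had no entry, and the nearest window of TFAP2A lay 2683 bases from that start.
DLX6, chr7:97005303-97005552, strand +: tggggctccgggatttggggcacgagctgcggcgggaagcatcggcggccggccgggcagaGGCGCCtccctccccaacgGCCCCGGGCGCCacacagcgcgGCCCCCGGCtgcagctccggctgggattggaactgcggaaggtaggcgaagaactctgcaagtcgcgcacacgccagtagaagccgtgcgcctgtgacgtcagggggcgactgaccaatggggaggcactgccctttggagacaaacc
GATA2, chr3:128493202-128493451, strand -: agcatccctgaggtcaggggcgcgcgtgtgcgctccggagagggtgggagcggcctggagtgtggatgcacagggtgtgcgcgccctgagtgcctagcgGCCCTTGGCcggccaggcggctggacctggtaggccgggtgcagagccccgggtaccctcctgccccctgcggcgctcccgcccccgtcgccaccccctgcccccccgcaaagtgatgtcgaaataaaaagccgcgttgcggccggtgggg
GATA3, chr10:8054438-8054687, strand +: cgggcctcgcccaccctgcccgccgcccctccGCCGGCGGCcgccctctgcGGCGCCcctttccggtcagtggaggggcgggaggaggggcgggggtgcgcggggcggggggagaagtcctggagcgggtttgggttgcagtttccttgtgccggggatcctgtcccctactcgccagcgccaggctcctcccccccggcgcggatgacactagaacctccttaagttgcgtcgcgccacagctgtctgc
MSX2, chr5:174724332-174724581, strand +: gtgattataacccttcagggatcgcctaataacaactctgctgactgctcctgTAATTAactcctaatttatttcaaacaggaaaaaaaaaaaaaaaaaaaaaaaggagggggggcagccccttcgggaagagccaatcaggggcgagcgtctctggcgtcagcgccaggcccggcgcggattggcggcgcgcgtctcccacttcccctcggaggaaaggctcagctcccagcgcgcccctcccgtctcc
The motifs searched on both strands were the AP-2 site GCCNNNGGC, the homeodomain core TAATTA, the GATA site GATAA and the GC-rich SMAD site GGCGCC. DLX6 held 2 AP-2 matches and 2 SMAD matches, one of each overlapping the other. GATA3 held 1 AP-2 match and 1 SMAD match, GATA2 held 1 AP-2 match, and MSX2 held 1 homeodomain match. Of all 35116 RefSeq windows cut to the same 250 bases, 19.8% held the AP-2 letters, 4.35% the homeodomain letters, 20.4% the GATA letters and 16.4% the SMAD letters. GC content of the shown stretches was 70.0% for DLX6, 72.8% for GATA2, 73.6% for GATA3 and 55.6% for MSX2, against a median of 58.0% over all windows. A match is a run of letters and was not tested as a binding site.

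Compared with Cond 1, cells in the heated medium of Cond 2 held more RNA of DLX3, DLX5, DLX6, TFAP2A, GATA2, GATA3 and MSX2. A gene is called where the edgeR adjusted p was under 0.05 and the fold change above 2, and these 7 of the 9 tested genes were called higher, beside 1.84% of all 17747 tested genes. None was called lower, beside 2.5% of all tested genes. The 7 were chosen by values of this comparison, so the count is a description. TFAP2B, with 1 count in Cond 2 replicate 3 and 0 in the other libraries, was not tested. In bulk RNA, more cells that express a gene and more RNA per cell cannot be told apart.

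DLX5 and DLX6 are homeobox genes that act in the ectoderm around the neural plate, in placodes and in the branchial arches. They lie as a pair on chromosome 7 on opposite strands with 9355 bases between them, DLX6 at chr7:97005553-97011040 and DLX5 at chr7:97020396-97024950 (GRCh38, GENCODE v44). DLX5 was at 26.3, 9.44 and 5.24 TPM in the 3 Cond 2 libraries, and at 0.208, 0 and 0 TPM in Cond 1. Every Cond 2 library was above every Cond 1 library. Since Cond 1 held 2 counts in all against 370 in Cond 2, the ratio of summed counts was 180.0 with a 95% counting interval of 49.4 to 1490. Both Cond 1 counts came from replicate 1, and the fitted log2 fold change of 7.27 was 9.95 without that library and 6.34 without Cond 2 replicate 1. DLX5 was absent from the counts of all 3 Cond 3 libraries and at 0.212 to 0.242 TPM (2 counts each) in Cond 4.

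DLX6 followed at a lower level per length, with 4.82, 2.69 and 1.51 TPM in Cond 2 and no count in any Cond 1 library. Its 162 counts in Cond 2 were at least 52.5-fold higher than a floor of 3 counts over the Cond 1 group allows. The deposited counts do not tell on which strand reads were counted, and DLX6 shares 5488 bases with the antisense transcript DLX6-AS1, so reads from both could fall on either. DLX6-AS1 held 39, 6 and 6 counts in Cond 2 and 0 in the other 9 libraries, fewer than the 84, 53 and 25 counts of DLX6.

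DLX3, a homeobox gene needed in placenta and epidermis, is on chromosome 17 (chr17:49990005-49995224). Its Cond 2 counts were 50, 13 and 8 (3.64, 0.838 and 0.612 TPM) against 0 in Cond 1, at least 23.0-fold higher by the same floor. Most of these counts came from Cond 2 replicate 1, without which the fitted log2 fold change, which depends on the prior count, was 6.34 in place of 7.59. With limma on log2(TPM + 1), DLX3 was not called (log2 fold change 1.26).

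TFAP2A encodes AP-2alpha, a regulator of surface ectoderm and neural crest (chr6:10393186-10419659). It was at 5.88, 4.67 and 2.2 TPM in Cond 2 and at 0.110, 0.232 and 0.0831 TPM in Cond 1, with no overlap. The mean was 4.25 ± 1.87 TPM (SD, n = 3) against 0.142 ± 0.0793 TPM (SD, n = 3), a log2 fold change of 4.84 (SE 0.459). The gene overlaps the antisense transcript TFAP2A-AS1 over 7107 bases, and TFAP2A-AS1 held 5 counts, all in Cond 2 replicate 1. It also overlaps TFAP2A-AS2 over 3427 bases, whose counts were not read here.

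TFAP2C, encoding AP-2gamma, had the highest level of the family in every condition (chr20:56629306-56639283). It was at 34.4, 32.8 and 37.9 TPM in Cond 2 and at 21.0, 24.4 and 27.5 TPM in Cond 1. The groups did not overlap, but the log2 fold change of 0.44 (SE 0.111) lay below the fold threshold. Its Cond 2 libraries were within 1.15-fold of each other.

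The zinc finger factor GATA3 (chr10:8045378-8075198), which acts in surface ectoderm, placodes and trophoblast, was at 12.1, 6.29 and 3.97 TPM in Cond 2 and at 0.214, 0.187 and 0.402 TPM in Cond 1. The log2 fold change was 4.66 (SE 0.567), with no overlap between the groups. GATA3-AS1, which shares 3035 bases with the widest GATA3 transcript model, had 20, 18 and 8 counts in Cond 2 and 2, 0 and 4 in Cond 1. GATA2 (chr3:128479427-128493201), a close relative known from the early non-neural ectoderm and from blood, differed less. It was at 1.60, 1.77 and 0.605 TPM in Cond 2 and 0.529, 0.143 and 0.230 TPM in Cond 1, a log2 fold change of 2.03 (SE 0.654). GATA2-AS1, which overlaps GATA2 over 3990 bases, held 8, 3 and 0 counts in Cond 2 and 1, 0 and 0 in Cond 1. Cond 2 replicate 3 and Cond 1 replicate 1 each held 13 counts, and the call was lost without Cond 1 replicate 2 (log2 fold change 1.72) or 3 (1.86) or without Cond 2 replicate 1 (1.85) or 2 (1.78). Without Cond 1 replicate 1 the log2 fold change was 2.69.

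MSX1 and MSX2 are homeobox repressors and BMP targets at the border of the neural plate. MSX2 (chr5:174724582-174730896) was at 6.14, 1.65 and 2.33 TPM in Cond 2 and 0.326, 0.286 and 1.69 TPM in Cond 1. The groups overlapped, since Cond 1 replicate 3 was just above Cond 2 replicate 2. Its log2 fold change was 2.00 (SE 0.635), and the call was lost without Cond 2 replicate 1 (log2 fold change 1.22) and without Cond 1 replicate 1 (1.63) or 2 (1.64). Without Cond 1 replicate 3 the log2 fold change was 3.35. MSX1 (chr4:4859665-4863936) was at 1.12, 1.16 and 0.391 TPM in Cond 2 and 1.80, 0.599 and 1.85 TPM in Cond 1, a log2 fold change of -0.75 (SE 0.562) within the spread of the libraries.

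**Figure D1:**
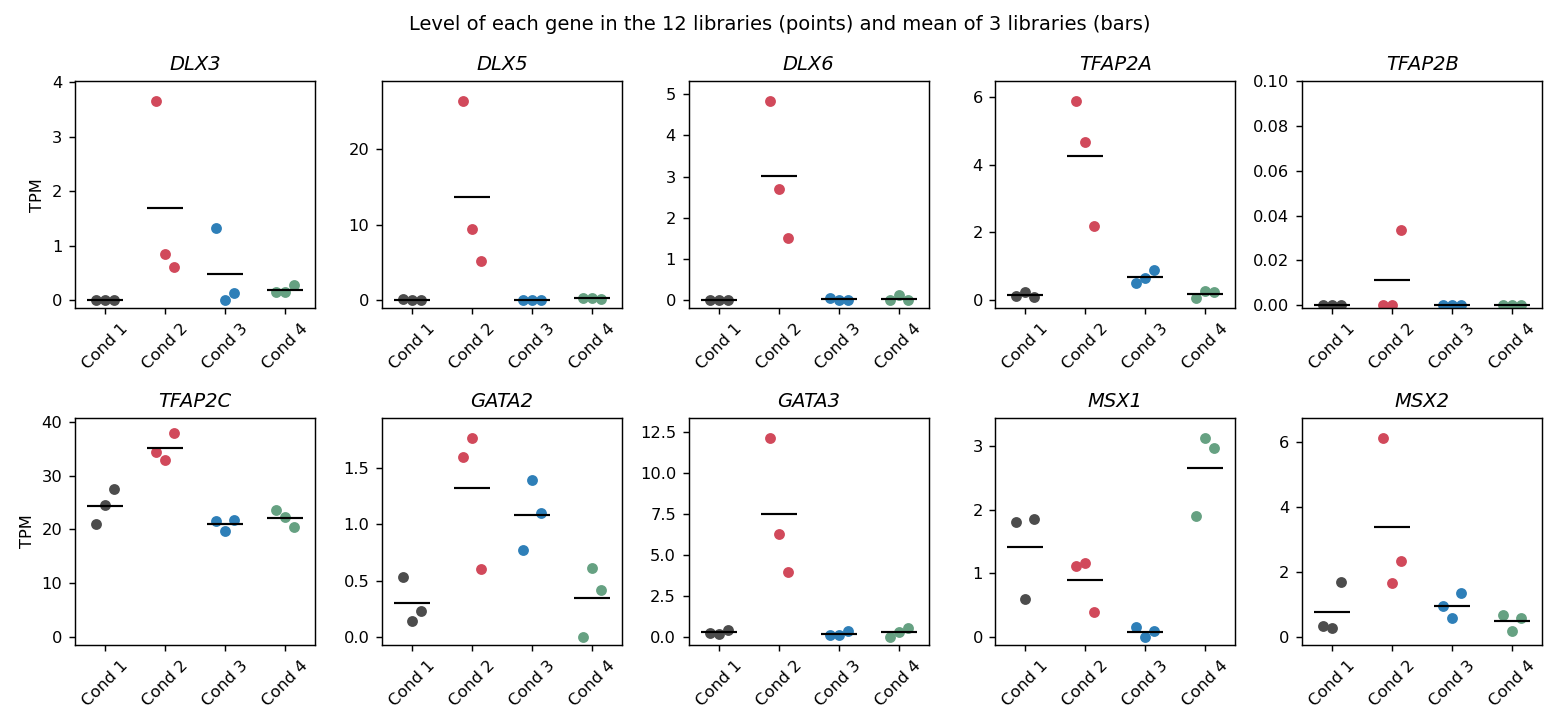
Level in TPM (vertical axes, one scale per gene) of the 10 genes in the 3 libraries of each condition (points), with the mean of 3 libraries as a bar. DLX5, DLX6, TFAP2A and GATA3 stand out in Cond 2 with every library above those of the other conditions, TFAP2C is at 19.7 TPM or more throughout, and MSX1 is lowest in Cond 3.

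In Cond 2 the order of mean levels per length was TFAP2C (35.1 TPM), DLX5 (13.7), GATA3 (7.46), TFAP2A (4.25), MSX2 (3.38), DLX6 (3.01), DLX3 (1.70), GATA2 (1.32), MSX1 (0.889) and TFAP2B (0.0112). From DLX5 to MSX1 each gene's range over the 3 libraries overlapped that of the next gene. Within each of the 3 libraries, however, DLX5 was above GATA3 and GATA3 above TFAP2A, whereas TFAP2A was below MSX2 in replicates 1 and 3 and above it in replicate 2. TFAP2C, at 32.8 TPM or more, lay above the highest DLX5 library at 26.3 TPM.

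The 3 Cond 2 libraries differed from one another for most of these genes. Replicate 1 held 71.5% of the TPM of DLX3 summed over the 3 libraries, 64.2% of DLX5, 60.6% of MSX2, 54.1% of GATA3, 53.5% of DLX6 and 46.1% of TFAP2A. For TFAP2C the shares were 32.7%, 31.2% and 36.0%. The highest library was 5.96-fold above the lowest for DLX3, 5.03-fold for DLX5, 3.20-fold for DLX6, 3.05-fold for GATA3 and 2.67-fold for TFAP2A. These 5 genes shared the order replicate 1, then 2, then 3, which was found for 16.4% of all tested genes and for 35.0% of the 326 genes called higher in Cond 2. The same order held for 6 of the 11 tested anterior neural plate genes and 5 of the 8 tested BMP/SMAD1/5 response genes, but for 1 of the 14 pluripotent cell markers. Each of DLX3, DLX5, DLX6, TFAP2A and GATA3 was still called higher without Cond 2 replicate 1, and 5 of the 9 tested genes were then called in place of 7.

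**Figure D2:**
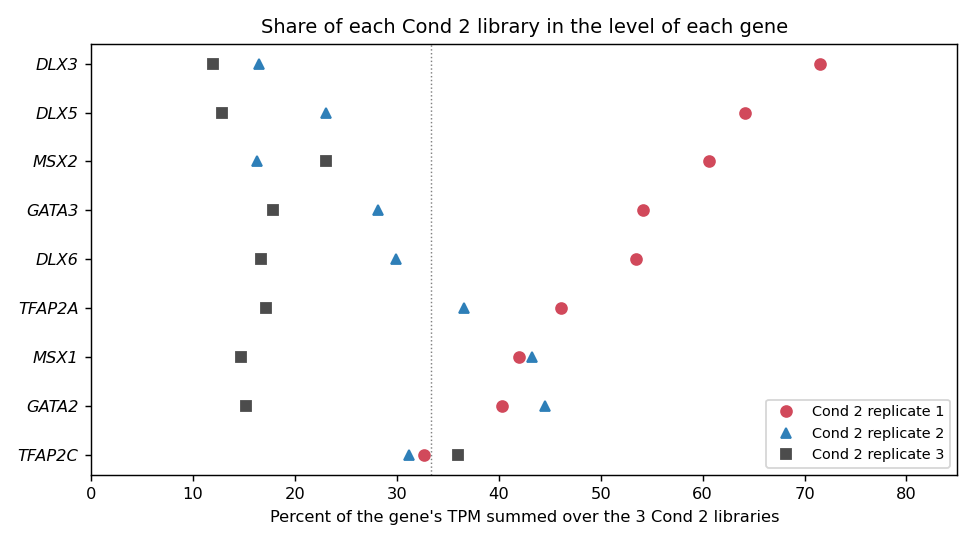
Percent of each gene's TPM, summed over the 3 Cond 2 libraries, that lay in each library (horizontal axis, one symbol per replicate, dotted line at equal shares). Replicate 1 holds 71.5% for DLX3 and 64.2% for DLX5, while the 3 libraries are between 31.2% and 36.0% for TFAP2C.

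Cond 3, the medium with FBS, gave another pattern over the same genes. DLX3, TFAP2A and GATA2 were called higher than in Cond 1, 3 of 9 tested genes beside 4.85% of all tested genes, and MSX1 was called lower, 1 of 9 beside 3.31%. These counts are again a description. Cond 3 and Cond 2 were both set against the same 3 control libraries.

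TFAP2A was at 0.516, 0.667 and 0.894 TPM in Cond 3, above all Cond 1 libraries and below all Cond 2 libraries, with a log2 fold change of 2.28 (SE 0.509) against Cond 1. Its counts were low, 26, 30 and 39, against 5, 9 and 4. GATA2 was at 0.769, 1.39 and 1.10 TPM, above the Cond 1 libraries, with a log2 fold change of 1.79 (SE 0.659). That call was lost without Cond 1 replicate 2 (1.48) or 3 (1.62) or Cond 3 replicate 2 (1.57) or 3 (1.78), and the log2 fold change was 2.45 without Cond 1 replicate 1. For DLX3, 22 of 24 counts came from Cond 3 replicate 1, the other libraries held 0 and 2, and the group was at least 7.46-fold above the floor of Cond 1. Without Cond 3 replicate 1 DLX3 was not called and its log2 fold change was 3.15, and the call was also lost without Cond 1 replicate 1 or 3.

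MSX1 held 2, 0 and 1 counts in Cond 3 (0.154, 0 and 0.0888 TPM) against 21, 6 and 23 in Cond 1. The ratio of summed counts, Cond 1 over Cond 3, was 17.9 with a 95% counting interval of 5.78 to 89.3, and the libraries did not overlap. The fitted log2 fold change of -3.97 was -4.74 without Cond 3 replicate 1. MSX2 was at 0.954, 0.575 and 1.36 TPM in Cond 3, inside the range of Cond 1, and its log2 fold change of 0.25 (SE 0.681) changed sign without Cond 1 replicate 1 or 2 or Cond 3 replicate 3. GATA3 held 2, 2 and 6 counts in Cond 3 and 4, 3 and 8 in Cond 1, a log2 fold change of -0.65 (SE 0.826). DLX5 and DLX6, with 0 and 1 counts in Cond 3, were at or under the floor in both groups and have no fold. TFAP2C was at 21.5, 19.7 and 21.8 TPM, a log2 fold change of -0.24 (SE 0.113) with overlapping libraries.

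**Figure D3:**
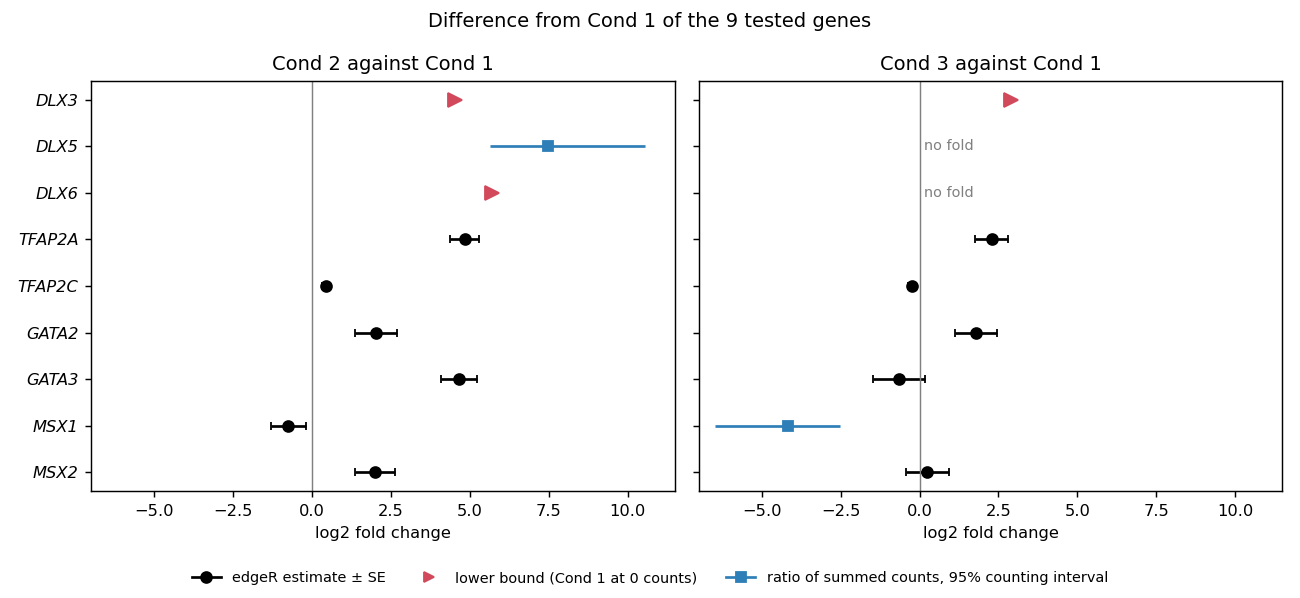
Log2 fold change against Cond 1 (horizontal axes) of the 9 tested genes in Cond 2 (left) and Cond 3 (right). Circles are edgeR estimates with SE, triangles are lower bounds where Cond 1 held no count, and squares are ratios of summed counts with a 95% counting interval where a group held 1 to 3 counts. TFAP2A and GATA2 lie to the right of 0 in both panels, whereas GATA3 lies at 4.66 in Cond 2 and at -0.65 in Cond 3.

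Set against Cond 2 directly, Cond 3 was lower for DLX5, DLX6, TFAP2A, GATA3, MSX1 and MSX2, 6 of 9 tested genes beside 3.01% of all tested genes. The heated medium was given for longer before harvest than the FBS medium, so content and exposure time cannot be told apart here. DLX5 was at least 128-fold lower than in Cond 2, counted against the floor, and the summed counts of DLX6 were 169 times higher in Cond 2 with a counting interval of 29.9 to 6710. GATA3 had a log2 fold change of -5.31 (SE 0.601), which was -6.06 without Cond 3 replicate 3, and TFAP2A of -2.57 (SE 0.367). For MSX1, 30 counts in Cond 2 against 3 in Cond 3 gave a ratio of 10.4 (95% counting interval 3.24 to 53.5), and the fitted log2 fold change of -3.21 was -3.99 without Cond 3 replicate 1. MSX2 had a log2 fold change of -1.76 (SE 0.62), and its call was lost without Cond 2 replicate 1 (-0.96), Cond 3 replicate 1 or Cond 3 replicate 2. GATA2 was not called, with a log2 fold change of -0.24 (SE 0.576) and overlapping libraries. DLX3 was not called (-1.70, SE 0.859), but without Cond 3 replicate 1 it was, with a log2 fold change of -4.42.

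In Cond 4, the pipetted cells, none of the 9 tested genes was called by edgeR, beside 0.0169% of all tested genes. With only the Cond 1 and Cond 4 libraries, 2 genes passed the filter on low counts in place of 9. For the genes with few counts in both conditions, the lack of a call therefore says little. The count at an unadjusted p under 0.05 was 1, namely DLX3, and DESeq2 and limma called 0 as well. DLX3 held 2, 2 and 4 counts in Cond 4 against 0 in Cond 1. MSX1 was at 1.89, 3.12 and 2.96 TPM, above the 3 Cond 1 libraries, with a log2 fold change of 0.88 (SE 0.519, edgeR adjusted p = 0.844). The adjusted p of the other tested genes in Cond 4 lay between 0.802 and 0.996.

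Of the 9 other DLX, TFAP2 and GATA genes looked up beside these, DLX4, TFAP2E and GATA5 had enough counts to be tested. DLX4 was at 2.40, 1.06 and 0.572 TPM in Cond 2 and 0.450, 0.701 and 0.706 TPM in Cond 1 and was not called there (log2 fold change 1.04, SE 0.52, edgeR adjusted p = 0.176). It was called higher in Cond 3 (1.66, SE 0.508, edgeR adjusted p = 0.0124), a call lost without Cond 1 replicate 1 or Cond 3 replicate 1. GATA5 was called higher in Cond 3 (2.47, SE 0.879, edgeR adjusted p = 0.0296), and only the fit without Cond 3 replicate 2 kept that call among the 6 that left out 1 library. TFAP2E was called in neither. DLX1, DLX2, TFAP2D, GATA1, GATA4 and GATA6 had mean levels below 1 TPM in all conditions.

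The BMP pathway genes were read next to the 10 genes, since several of the 10 are known targets of it. Of 11 tested BMP ligands and receptors, 1 was called higher in Cond 2 and 1 in Cond 3, with a median log2 fold change of 0.249 and 0.104 where the medians of all genes were 0.00 and -0.006. At any fold, 5 of the 11 had an adjusted p under 0.05 in Cond 2 and 4 in Cond 3. The ligand BMP4 was at 24.0, 19.9 and 17.5 TPM in Cond 2 and 5.98, 4.31 and 7.11 TPM in Cond 1 (log2 fold change 1.72, SE 0.196, edgeR adjusted p = 5.93e-07). BMP2 was called in Cond 3, at 31.5, 29.1 and 27.0 TPM against 8.55, 8.96 and 8.81 TPM (1.71, SE 0.129, edgeR adjusted p = 5.81e-10). In the other medium, BMP4 had a log2 fold change of 0.84 (SE 0.2, Cond 3) and BMP2 of 0.74 (SE 0.132, Cond 2), both with an adjusted p under 0.05 and below the fold threshold. The ligand BMP7 was at 32.6, 30.8 and 28.8 TPM in Cond 2 and 14.9, 12.5 and 17.9 TPM in Cond 1, and was not called there. It was called lower in Cond 3 against Cond 2 (log2 fold change -1.3).

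Among the BMP/SMAD1/5 response genes, 3 of 8 tested were called higher in Cond 2 and 3 in Cond 3, none lower, with medians of 1.00 and 0.588. The inhibitors of differentiation ID2 and ID4 and the inhibitory SMAD6 were those called in Cond 2, with log2 fold changes of 1.60 (SE 0.15), 1.98 (SE 0.102) and 1.08 (SE 0.154). ID1, the most abundant of them, was at 1289, 1205 and 1072 TPM in Cond 2 and 794, 928 and 783 TPM in Cond 1, a log2 fold change of 0.43 (SE 0.0814) below the fold threshold. In Cond 3, ID2 (1.30, SE 0.15), SMAD9 (1.04, SE 0.34) and ATOH8 (1.91, SE 0.747) were called, the latter at a mean of 0.429 TPM. Leaving out 1 library ended the call of SMAD9 (Cond 1 replicate 3 or Cond 3 replicate 1) and of ATOH8 (Cond 1 replicate 1 or 3, Cond 3 replicate 2 or 3). SMAD7, an inhibitory SMAD, and ID1 had opposite signs in the 2 media. The log2 fold change of SMAD7 was 0.89 (SE 0.161, edgeR adjusted p = 0.000253) in Cond 2 and -0.97 (SE 0.172, edgeR adjusted p = 0.000102) in Cond 3, and the direct comparison of Cond 3 with Cond 2 gave -1.86 (SE 0.17, edgeR adjusted p = 1.1e-08). ID1 was -0.29 (SE 0.0818) in Cond 3 against Cond 1 and -0.72 (SE 0.0818, edgeR adjusted p = 3.19e-07) in Cond 3 against Cond 2. BAMBI was at a mean of 42.6 TPM in Cond 2, 37.2 TPM in Cond 1 and 26.6 TPM in Cond 3. In Cond 3 all 8 tested response genes had an adjusted p under 0.05 at any fold, with SMAD7, ID1 and BAMBI lower than in Cond 1. ID3, with a mean of at most 0.326 TPM, was not tested.

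Among the BMP antagonists, secreted proteins that bind the ligands, FST and NOG were called in Cond 2, 2 of 7 tested, with a list median of 0.339. FST was at 198, 168 and 187 TPM against 65.6, 62.7 and 71.5 TPM (1.38, SE 0.0969, edgeR adjusted p = 2.85e-10). NOG was at 3.14, 4.16 and 7.79 TPM against 2.21, 1.34 and 1.62 TPM (1.44, SE 0.453, edgeR adjusted p = 0.0258), a call lost without Cond 1 replicate 2 or 3 or Cond 2 replicate 3. In NOG the highest of the Cond 2 libraries was replicate 3, the one lowest in DLX5, GATA3 and TFAP2A. In FST it was replicate 1, which was the highest for 4 of the 7 tested antagonists. CHRD was the antagonist called in Cond 3 (1.21, SE 0.266, edgeR adjusted p = 0.00092), where the list median was 0.42.

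**Figure D4:**
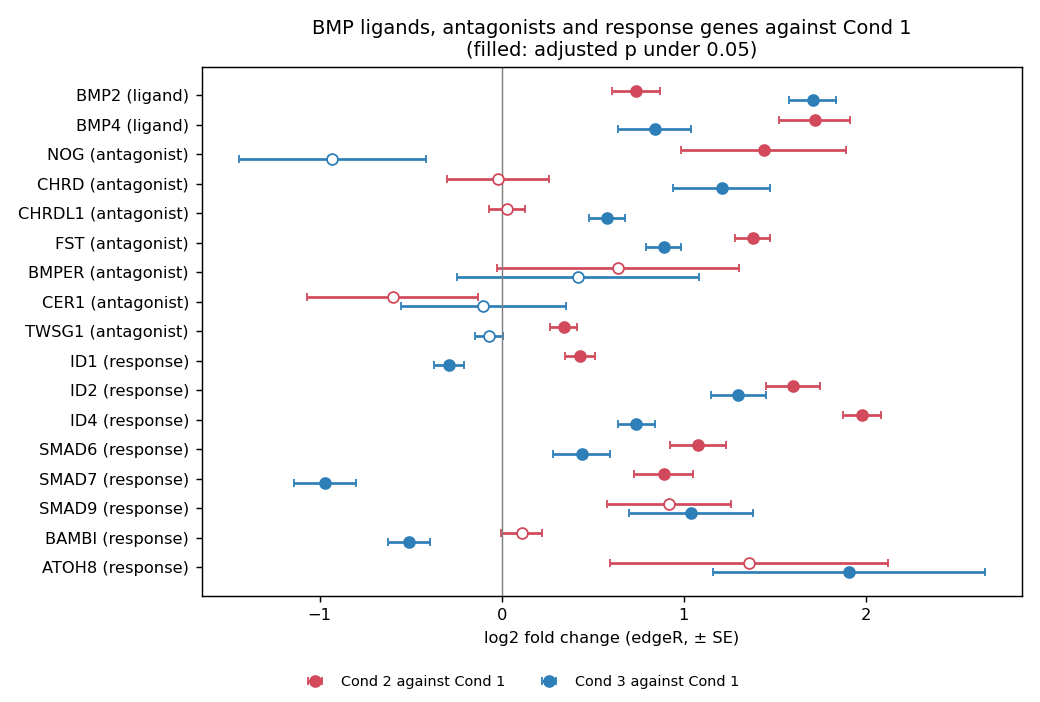
Log2 fold change with SE (horizontal axis, edgeR) of BMP2, BMP4, the tested BMP antagonists and the tested BMP/SMAD1/5 response genes in Cond 2 (red) and Cond 3 (blue) against Cond 1. Filled points had an adjusted p under 0.05, and SMAD7 and ID1 lie to the right of 0 in Cond 2 and to the left in Cond 3.

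The neural side of the ectoderm was read in the same way. Of 11 tested anterior neural plate genes, 8 were called higher in Cond 2 and none lower, with a median log2 fold change of 2.618. These counts and the p-values below come from a list chosen with earlier results of these libraries known. Of the 8, FEZF2 and PAX6 (named after their values were seen) were called in 2 of the 6 fits that left out 1 library. FEZF2 (2.62) was lost without Cond 1 replicate 1 (2.03) or 2 (2.40) or Cond 2 replicate 1 (2.24) or 2 (2.69), and was 4.33 without Cond 1 replicate 3. PAX6 (2.2) was lost without Cond 1 replicate 1 (1.61) or 2 (2.28) or Cond 2 replicate 2 (2.37) or 3 (1.65), and was 3.07 without Cond 1 replicate 3. Its mean level in Cond 2 was low, at 0.225 TPM. SIX3 was at 209, 155 and 109 TPM in Cond 2 against 0.736, 2.34 and 4.09 TPM in Cond 1 (5.94, SE 0.336, edgeR adjusted p = 7.5e-12). In TPM this was above the level of each of the 10 genes in Cond 2. LHX5 (4.97, SE 0.231), FEZF1 (4.36, SE 0.171) and RAX (4.29, SE 0.562) were the next in size. Without Cond 1 replicate 3 the log2 fold change was 6.65 for SIX3 and 5.39 for RAX. Whether the same cells held RNA of the neural plate genes and of the 10 genes cannot be told from bulk libraries. In Cond 3, FEZF1 (3.33, SE 0.171) and LHX5 (2.01, SE 0.24) were called higher and SIX6 lower (-3.58, SE 1.06, called in 5 of the 6 fits that left out 1 library, not without Cond 1 replicate 3).

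The called neural plate border and neural crest genes had no common direction in Cond 2, with 2 of 8 tested called higher and 2 lower (median 0.458). At any fold, 6 of the 8 had an adjusted p under 0.05. LMX1A was higher (3.37, SE 0.736), and FOXD3 (-2.08, SE 0.141) and ETS1 (-1.44, SE 0.111) were lower. FOXD3 is also expressed in pluripotent cells, and it was at 8.82, 16.4 and 12.6 TPM in Cond 2 against 53.9, 53.6 and 44.3 TPM in Cond 1. SOX9 was called higher in Cond 3 (1.33, SE 0.124). In Cond 2 it was not called, at a mean of 29.3 TPM against 14.7 TPM in Cond 1. SOX10, a neural crest gene, had no count row and was not tested. Its TPM was 9.33 to 11.4 in Cond 2 and 7.94 to 10.3 in Cond 3, against 5.13 to 5.38 in Cond 1. Of 6 tested preplacodal genes none was called in Cond 2, and EYA1 (1.54, SE 0.317) and EYA2 (1.54, SE 0.214) were called higher in Cond 3. In Cond 2, 2 of the 6 had an adjusted p under 0.05 below the fold threshold (median 0.169). FOXI3 was at 94.9 to 114 TPM in Cond 2 against 58.3 to 67.4 TPM in Cond 1. EYA2 was at 3.61 to 4.21 TPM against 2.05 to 2.66 TPM.

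Since GATA2, GATA3, TFAP2A and TFAP2C are also amnion and trophoblast genes, markers of those tissues were read as well. Of the 14, 5 had enough counts to be tested. GABRP, an amnion marker, was lower in Cond 2 at 0.471, 0.227 and 0.180 TPM against 5.85, 7.89 and 6.02 TPM (-4.55, SE 0.289, edgeR adjusted p = 4.88e-11), and lower in Cond 3 (-1.38, SE 0.213, edgeR adjusted p = 1.89e-05). The other tested genes of the list had higher mean TPM in Cond 2 than in Cond 1, such as IGFBP3 at 28.6 against 20.7 TPM. The list median in Cond 2 was 0.379, and 3 of the 5 had an adjusted p under 0.05 at any fold. VTCN1 (3.54, SE 0.827, mean 1.04 TPM) and IGFBP3 (1.07, SE 0.119) were called higher in Cond 3 and not in Cond 2. Of 11 mesoderm and endoderm genes 5 were tested, and CXCR4 was called higher in Cond 2 (1.95, SE 0.423) and in Cond 3 (1.24, SE 0.432), the latter in 2 of the 6 fits that left out 1 library. SOX17, an endoderm gene, had 6 counts in 1 Cond 1 library and 0 elsewhere, and TBXT, a mesoderm gene, was called higher in Cond 3 at 0.683, 1.39 and 1.29 TPM (3.77, SE 0.962, edgeR adjusted p = 0.00336). Of 14 pluripotent cell markers, NANOG was called lower in Cond 2 (-1.09, SE 0.0802) and Cond 3 (-2.16, SE 0.0854), and TDGF1 in Cond 2 (-1.50, SE 0.108). The list medians were -0.212 in Cond 2 and 0.074 in Cond 3. At any fold, 11 of the 14 had an adjusted p under 0.05 in Cond 2 and 10 in Cond 3. Mean levels moved both ways in Cond 2 against Cond 1, with DPPA4 at 468 against 681 TPM and SOX2 at 1300 against 908 TPM. POU5F1, which the study reports as lower in the heated medium and unchanged in the FBS medium, was not in this list. Of 6 tested fibroblast markers, THY1 was called lower in both media (-1.31, SE 0.075, and -1.56, SE 0.0757), and COL1A2 (1.2, SE 0.0655) and POSTN (3.74, SE 0.608) were called higher in Cond 3. The part of these cell type differences in the levels of the 10 genes was not tested.

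For each gene with a mean of at least 1 TPM in one condition, the genes with the most similar pattern over the 4 condition means were sought among 16397 genes, by the mean absolute difference of the centred log2(TPM + 1) values. DLX5 was nearest to LINC01833 (0.127) and CYP26A1 (0.177), the latter a retinoic acid degrading enzyme at 183 TPM in Cond 2 and 19.2 TPM in Cond 1. GATA3 was nearest to SIX3-AS1 (0.068) and FLRT3 (0.161), TFAP2A to FZD5 (0.056) and DMBX1 (0.095), and DLX6 to GPC3 (0.038) and LUZP2 (0.066). The other pairs were PODN (0.013) and KAT2B (0.062) for DLX3, ZNF608 (0.007) and AC069148.1 (0.010) for GATA2, GRIFIN (0.058) and STOM (0.072) for MSX2, MIR106B (0.087) and SPTLC1P1 (0.090) for MSX1, and UNC5B-AS1 (0.018) and C1QL1 (0.024) for TFAP2C. No other one of the 10 genes was among the 2 nearest of any of them. The added 1 flattens genes at few TPM, so a short distance does not mean a like fold change. For instance, DLX6 was at a mean of 0 TPM in Cond 1 and 3.01 TPM in Cond 2, and GPC3 at 433 and 1590 TPM. With 4 points per gene these distances are a description only.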

How the data were processed

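RNA-Seq was performed on 12 libraries, 3 per condition. Per the labels and the methods of the study, poly(A) RNA was made into strand-specific libraries, and the authors demultiplexed reads with bcl2fastq 2.20.0.422, trimmed them with cutadapt 4.1 and fastp 0.20.1, aligned them to GRCh38 with HISAT2 2.1.0 and counted them per gene with featureCounts. The strand setting and annotation of the counting are not given in the sources used here. The authors deposited whole-number counts and TPM values, and TPM recomputed from the counts and gene lengths differed by at most 1.79e-14 in relative terms. 5 lines of the count table that name no gene used here were left out, and 2042 TPM genes had no count row.

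Counts were tested with edgeR 4.0.16 (R 4.3.3; TMM, filterByExpr, quasi-likelihood test, 1 fit over 12 libraries, Benjamini-Hochberg adjustment over 17747 genes). A call required an adjusted p under 0.05 and a fold change above 2. The authors' methods name limma on TPM, which was an alternative here (limma 3.58.1). The other alternatives were upper-quartile scaling, DESeq2 1.42.0, a fit with all genes that had a count, a replicate block, only the 6 libraries of a comparison, no fold threshold, and leaving out each library. Counting intervals are exact (Clopper-Pearson, scipy 1.17.1) and cover counting error only, as do floors of 3 counts over a group. Depth was 16441148 to 21871503 counts. The edgeR, DESeq2 and limma fits were also run on simulated counts in which only genes with higher counts were changed. That run does not cover genes with few counts or the other steps. Coordinates are from GENCODE v44 on GRCh38.

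The 10 genes and the gene lists were chosen with earlier results of these data known. From each list, called genes with a mean TPM of at least 1 in one condition were named, at most 4 per list and comparison, lists of up to 9 genes could be named whole, and TP63, KRT5, KRT14, TBXT and SOX17 were named in any case. SOX10, FOXI3, FEZF2, PAX6 and BMP7 were named beyond this rule, after their values were seen. For each gene the 2 genes nearest in pattern were named.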

Additional observations from a re-analysis of the deposited data

How the results depend on the processing

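Of 320 fold change values of single genes recomputed under an alternative, 283 kept their direction and their side of the threshold, 31 lost the call, 2 gained it (DLX3 in Cond 3 against Cond 2, with the replicate block and without Cond 3 replicate 1) and 4 changed sign. The sign changes were MSX2 in Cond 3 against Cond 1 (-0.12 to 1.59 over the fits that left out 1 library), at -0.12 without Cond 1 replicate 1, -0.12 without Cond 1 replicate 2 and -0.07 without Cond 3 replicate 3, and GATA2 in Cond 3 against Cond 2 (-0.58 to 0.02), at 0.02 without Cond 2 replicate 2. Against Cond 1, limma on log2(TPM + 1) called 4 genes in Cond 2 and 1 in Cond 3, and limma on log2(TPM + 0.1) called 4 and 2, where edgeR called 7 and 4. Over all genes, limma on log2(TPM + 1) called 419 in Cond 2, 785 in Cond 3 and 896 in Cond 3 against Cond 2, where edgeR called 770, 1449 and 1557. For Cond 4 edgeR called 3 genes, limma on log2(TPM + 0.1) 21 and edgeR with no filter 14. With the 6 libraries compared alone, 2 genes were called in Cond 3 against Cond 1 because 4 passed the filter on low counts in place of 9. Leaving out each library in turn gave 5 to 7 called genes in Cond 2, 2 to 3 in Cond 3, 0 in Cond 4 and 5 to 6 in Cond 3 against Cond 2. DLX5, DLX6, TFAP2A and GATA3 were called in Cond 2 against Cond 1, and lower in Cond 3 against Cond 2, under all 13 alternatives that tested them. Whether replicate numbers pair the libraries was left undecided. Of 18 same-numbered pairs, 0 had a correlation of deviations over 0.1 (-0.0131 to 0.0379). Pairs of different numbers did not reach it either (-0.0693 to 0.0607), so the cut cannot decide on a weak pairing. Of 12 libraries, 7 correlated best with their own number. The replicate block called 7 genes in Cond 2, 4 in Cond 3, 0 in Cond 4 and 7 in Cond 3 against Cond 2, where DLX3 was added (-1.99). The call of GRHL3 in Cond 2 was lost with the block (0.93). Low counts limit DLX3, GATA2, MSX1, MSX2 and DLX6, with 8 to 50, 13 to 45, 4 to 14, 21 to 69 and 25 to 84 counts per Cond 2 library, and TFAP2B, with 1 count in all, was not tested. The causes of these differences were not tested.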
